A study of Mus musculus with 12 samples.

Results

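Mouse chromosomes carry the centromere at one end, and the numbering of each autosome leaves the bases before 3000000 to a gap that stands for the centromere and the repeats around it. The members described here are the pan-lysine-crotonylation (pan-Kcr) peaks of chromosomes 1 to 19 that overlap the first megabase (Mb) after that gap, bases 3000000 to 4000000 of GRCm38. The rule used position only. It selected 267 of 16243 peaks in the list from trained mice and 2846 of 332168 in the list from home cage mice, together 3113 of 348411. The same rule applied to bases 4000000 to 5000000 of the same chromosomes, the next Mb, gave 119 and 2580 peaks and served as the comparison.

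The peaks come from chromatin immunoprecipitation and sequencing (ChIP-seq) of C57BL/6J mouse dorsal hippocampus, crosslinked with formaldehyde and sheared by sonication. One antibody library came from mice trained in the Spatial Object Recognition (SOR) task, in which mice learn where objects stand (learning), and one from mice housed in their home cage (homecage). These 2 of the 12 libraries of the series were analysed here. The other 10, which are 2 input libraries and 8 single-nucleus libraries of crotonate- and saline-treated mice, were not used. No genotype difference or drug treatment is labelled for the ChIP-seq mice, and their age, the time from training to dissection, the pooling of animals and the use of input as a control are not given in the sources used here. With 1 library per condition there is no replicate check, no difference between the libraries has a test, and all differences describe these 2 libraries. The files hold peak positions only, so the read depth is unknown. Shares and ratios carry 95% intervals that treat peaks as independent. They cover counting error only, and neighbouring peaks are not independent.

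Lysine crotonylation is an acylation of lysine, best known on histone tails at active promoters and enhancers, where acyltransferases such as p300 can write it from crotonyl-CoA and proteins with YEATS domains can read it. The antibody binds crotonylated lysine in any protein, so a peak does not say which protein carried it. The chromatin around mouse centromeres is built on satellite DNA that lies mostly outside the assembled sequence. It is known for dense DNA methylation, for methylation of histone H3 at lysine 9 and histone H4 at lysine 20, and for low transcription. The first Mb after the gap borders it and holds ordinary genes beside pseudogenes and repeated segments.

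Genes for enzymes that make those marks lay in the first Mb, with and without learning peaks. The promoters of Dnmt3a, a DNA methyltransferase that sets up new methylation, and Kmt5b, an H4 lysine 20 methyltransferase, were both covered by a learning peak over all 250 bases before an annotated start. Each of them also had another annotated start with 0 of the 250 bases in a learning peak. This grouping of genes was made with their peaks in view. Suv39h2, an H3 lysine 9 methyltransferase on chromosome 2, had 0 learning and 0 homecage peaks within 1 kb of its ends. Its body held 0 learning and 2 homecage peaks. By the measure of gene ends Dnmt3a also had 0 peaks in either list, since its covered start lies inside the gene. The sequences printed here are shown to compare starts under learning peaks with starts under homecage peaks alone. They are the 250 bases before the start from the RefSeq promoter table of GRCm38.p6, read 5′ to 3′ on the gene's strand, with each CG dinucleotide in capitals. CG is the same on both strands and is the target of DNA methylation. Of all autosomal promoters in the table, 92.4% held at least 1 CG in these 250 bases. Windows within the first or last kb of an annotated gene, or within the kb after a listed start, were not printed. Of the others, with 1 window per gene, the first 4 were those with most bases inside a learning peak. The last 2 lay fully inside a homecage peak, the widest such peaks without a learning peak over the promoter. They are Dnmt3a (chr12:3806730-3806979, + strand), Patz1, a zinc finger transcription factor (chr11:3288881-3289130, + strand), the predicted gene D830030K20Rik (chr14:3208243-3208492, + strand), Tug1, a long non-coding RNA (chr11:3648815-3649064, - strand), Limk2, a kinase of the actin regulator cofilin (chr11:3371405-3371654, - strand), and the predicted gene Gm3043 (chr14:3688538-3688787, + strand). This choice of windows was made after their peaks were seen.
Dnmt3a: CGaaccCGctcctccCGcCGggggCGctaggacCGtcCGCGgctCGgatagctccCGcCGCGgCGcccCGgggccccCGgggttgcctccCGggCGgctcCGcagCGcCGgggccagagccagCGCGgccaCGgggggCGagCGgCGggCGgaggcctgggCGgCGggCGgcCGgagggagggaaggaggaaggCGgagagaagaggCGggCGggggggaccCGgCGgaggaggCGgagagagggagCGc
Patz1: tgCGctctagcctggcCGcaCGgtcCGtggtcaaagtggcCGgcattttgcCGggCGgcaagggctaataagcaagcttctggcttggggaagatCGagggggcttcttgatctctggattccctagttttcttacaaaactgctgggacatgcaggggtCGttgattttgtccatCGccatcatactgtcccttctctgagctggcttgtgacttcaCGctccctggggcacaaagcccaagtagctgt
D830030K20Rik: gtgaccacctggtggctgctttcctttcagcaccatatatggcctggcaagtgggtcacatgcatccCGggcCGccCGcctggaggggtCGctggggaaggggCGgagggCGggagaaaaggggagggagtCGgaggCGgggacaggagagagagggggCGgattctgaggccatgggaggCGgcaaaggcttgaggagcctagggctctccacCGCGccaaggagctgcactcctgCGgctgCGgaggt
Tug1: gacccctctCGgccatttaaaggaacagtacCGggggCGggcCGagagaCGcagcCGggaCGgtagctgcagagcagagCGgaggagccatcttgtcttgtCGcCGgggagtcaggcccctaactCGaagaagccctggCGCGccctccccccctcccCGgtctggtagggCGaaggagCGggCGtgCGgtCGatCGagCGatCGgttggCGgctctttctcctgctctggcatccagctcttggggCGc
Limk2: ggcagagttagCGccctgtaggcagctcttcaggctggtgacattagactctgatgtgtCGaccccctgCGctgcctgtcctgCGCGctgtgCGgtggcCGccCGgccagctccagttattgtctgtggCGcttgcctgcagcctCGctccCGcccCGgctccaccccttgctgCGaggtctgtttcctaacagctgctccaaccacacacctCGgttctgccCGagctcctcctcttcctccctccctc
Gm3043: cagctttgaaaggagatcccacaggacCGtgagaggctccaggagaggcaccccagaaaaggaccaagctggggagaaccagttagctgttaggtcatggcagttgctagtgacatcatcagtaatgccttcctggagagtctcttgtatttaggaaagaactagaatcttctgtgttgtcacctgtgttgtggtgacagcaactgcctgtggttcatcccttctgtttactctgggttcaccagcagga

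These stretches held 38 CG dinucleotides in Dnmt3a, 11 in Patz1, 14 in D830030K20Rik, 24 in Tug1, 15 in Limk2 and 1 in Gm3043. The learning peak covered 250 bases of the Dnmt3a window, 225 of Patz1, 186 of D830030K20Rik and 111 of Tug1. Homecage peaks covered all 250 bases in Dnmt3a, Patz1, Limk2 and Gm3043 and none in D830030K20Rik and Tug1. The windows with peaks of both libraries thus ranged widely in CG number, and Patz1 had fewer than Limk2, which lay in a homecage peak alone.

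The table held 318 promoters, each 250 bases before to 50 after a start, of 234 genes in the first Mb. A learning peak overlapped 17 of them (5.35%, 95% interval 3.14 to 8.42%), where the share over all autosomal promoters was 4.34%. A homecage peak overlapped 63 (19.8%, 15.6 to 24.6%), against 18.7%. Both shares were near those of the autosomes as a whole. Both lists reached 14 promoters, the learning list alone 3, the homecage list alone 49, and neither reached 252. The median CG number in the 250 bases before the start was 30.5 in promoters with peaks of both lists, 18 with a learning peak alone, 11 with a homecage peak alone and 5 with neither. Over all autosomes the same 4 classes had medians of 24, 19, 10 and 5, so the order of the classes in the first Mb was that of the autosomes. The first class held 14 promoters and the second 3, and starts of 1 gene share bases.

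Along the chromosomes, the learning list held 14.1 peaks per Mb in the first Mb, 6.26 in the next Mb and 6.53 in the autosomes beyond the first Mb. The first Mb therefore held 2.24 times as many learning peaks as the next (267 against 119, 95% interval 1.80 to 2.81). The homecage list held 150 peaks per Mb in the first Mb, 136 in the next and 137 beyond, and its ratio of first to next Mb was 1.10 (1.05 to 1.16). Against the next Mb, homecage peaks were thus slightly more frequent beside the gap and learning peaks more than doubled. At the other end of the chromosomes, the last Mb held 135 learning and 2644 homecage peaks, 1.13 (0.880 to 1.46) and 1.02 (0.970 to 1.08) times the next Mb, so both intervals for the last Mb included 1.

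The ratio of homecage to learning peaks was lower in the first Mb than in the next. There were 10.7 homecage peaks per learning peak in the first Mb (95% interval 9.40 to 12.1), 21.7 in the next Mb (18.0 to 26.3), 19.6 in the last Mb (16.5 to 23.5) and 20.8 over the autosomes (20.5 to 21.1). The first Mb was not alone in this. Among the 58 successive Mb that all 19 chromosomes hold, summed over chromosomes, its rank was 2 in learning peaks and 3 in homecage peaks. The Mb that starts at 20 Mb had 276 learning and 2946 homecage peaks, 10.7 per learning peak, and that at 15 Mb had 250 and 2758. In both, 1 chromosome supplied a large part of the learning peaks, 115 on chromosome 8 and 85 on chromosome 7, against 45 on chromosome 11 in the first Mb. With the top chromosome of each Mb left out, a comparison chosen after the data were seen, 222 learning peaks remained in the first Mb, the most of the 58, with 165 at 15 Mb and 161 at 20 Mb. The median per chromosome was also highest in the first Mb, 12 learning and 149 homecage peaks, against 6 and 130 at 20 Mb. The total of the first Mb was thus matched elsewhere, while its median chromosome was not.

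Measured as covered sequence, learning peaks took 112.9 kb of the first Mb of the 19 chromosomes and 46.6 kb of the next, 0.594% and 0.245%. Homecage peaks took 1272 kb and 1015 kb, 6.70% and 5.34%. The covered length of the first Mb was 2.42 times that of the next for learning peaks and 1.25 times for homecage peaks.

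The chromosomes differed greatly in their learning peaks. The first Mb held 45 learning peaks on chromosome 11, 35 on chromosome 16, 32 on chromosome 4 and 24 on chromosome 12, against 12, 12, 2 and 10 in the next Mb. These 4 chromosomes held 136 of the 267 members (50.9%). On the other 15 chromosomes the first Mb held 131 and the next 83. Chromosomes 2, 8 and 15 had the fewest, 3 each. The median chromosome had 12 learning peaks in its first Mb (range 3 to 45) and 5 in the next (range 1 to 13). The first Mb was the higher on 16 chromosomes, by at least 2-fold on 14 of them, and the lower on chromosomes 2, 7 and 8, where the pairs were 3 and 6, 6 and 13, and 3 and 7. Most chromosomes thus shared the direction, and a few supplied most of the excess.

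Homecage peaks varied less between chromosomes. The first Mb held a median of 149 (range 112 to 200) and the next 131 (range 107 to 173). It was the higher on 13 chromosomes, level on 1 and the lower on 5. Chromosome 3 had the most homecage members, 200, and 14 learning members. Chromosome 11, first in the learning list, had 151 homecage peaks in the first Mb and 157 in the next. Its learning excess thus had no counterpart in the homecage total of the Mb, but it had one locally. The bin of 100 to 200 kb held 33 of its 45 learning peaks and 33 homecage peaks, against 12 to 19 homecage peaks in its later bins. Its first 100 kb held 0 peaks of either list. The ratio of homecage to learning peaks on chromosome 11, 3.36, was the lowest of the 19 chromosomes. Next came chromosome 4 with 4.84, chromosome 16 with 4.94 and chromosome 12 with 6.92.

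Among all Mb of its own chromosome, the first Mb ranked first in learning peaks on chromosomes 11, 12 and 16, and in homecage peaks on chromosome 16. It stood in the top 10% of its chromosome's Mb on 10 chromosomes in the learning list and on 5 in the homecage list, and above the chromosome's median Mb on 15 in each list.

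**Figure D1:**
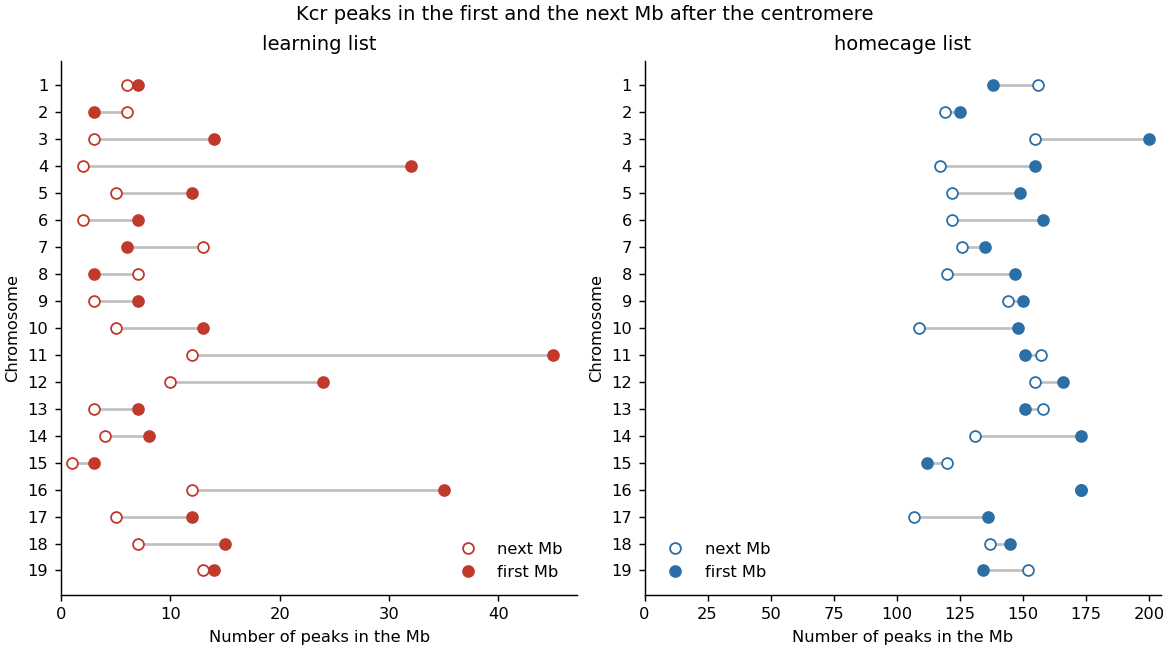
Peaks in the first and the next Mb of each of the 19 autosomes (x axis, number of peaks) in the learning and homecage lists, with a line joining the pair of each chromosome (y axis). Learning counts reach 45, 35 and 32 on chromosomes 11, 16 and 4 and exceed the next Mb on 16 chromosomes, while homecage pairs lie close together, between 107 and 200.

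The learning excess was concentrated in the first 400 kb. Summed over the 19 chromosomes, the 10 successive 100 kb bins of the first Mb held 52, 71, 49, 27, 11, 11, 14, 13, 14 and 5 learning peaks, and those of the next Mb held between 6 and 24. The first 400 kb held 199 of the 267 members (74.5%), or 26.2 peaks per Mb, 4.18 times the density of the next Mb (95% interval 3.31 to 5.29). The other 600 kb held 68, or 5.96 per Mb, 0.952 times the next Mb (0.696 to 1.29). The boundary of 400 kb was chosen after these counts were seen, so both ratios describe the profile and are no test of it.

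The homecage profile was also higher over the first 400 kb, at a smaller amplitude and more evenly. Its 100 kb bins held 306, 333, 320 and 306 peaks over the first 400 kb, then 251 to 280, and 227 to 283 in the next Mb. The first 400 kb held 166 homecage peaks per Mb, 1.23 times the next Mb (1.15 to 1.31), and the other 600 kb 1.02 times (0.959 to 1.09). Homecage peaks numbered 6.36 per learning peak in the first 400 kb (5.47 to 7.42) and 23.3 in the other 600 kb (18.2 to 30.1), and the lowest bin, 100 to 200 kb, had 4.69. The first bins were not filled on every chromosome. The first homecage peak started about 50 kb after base 3000000 on chromosomes 2, 4, 6 and 15 and about 100 kb after it on chromosomes 10 and 11.

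**Figure D2:**
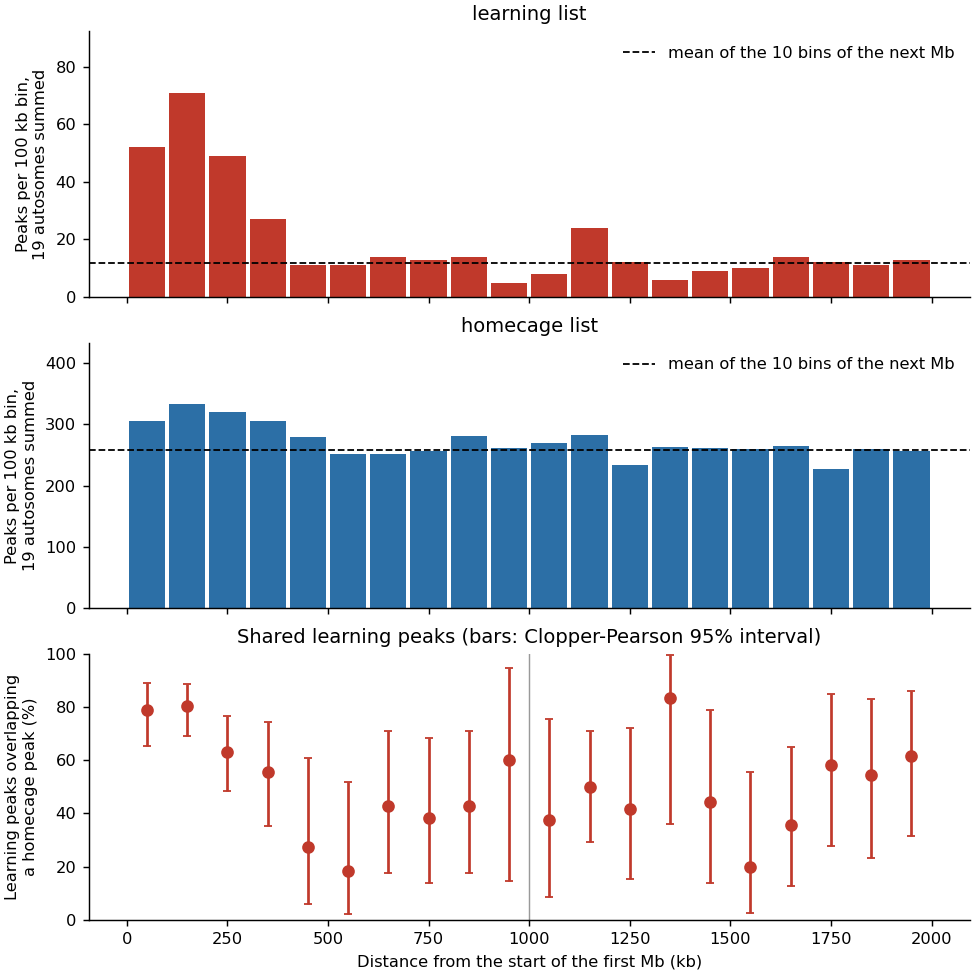
Peaks per 100 kb bin summed over the 19 autosomes in the learning and homecage lists, and the percentage of learning peaks that overlap a homecage peak with its 95% interval (y axes), against distance from base 3000000 in kb (x axis), with dashed lines at the mean of the 10 bins of the next Mb. Learning peaks fall from 71 in the second bin to 11 in the fifth, homecage peaks from 333 to 279, and the shared percentage from 80.3% to 27.3%.

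Learning members came in clusters. Of 24046 bins of 100 kb over the autosomes, 1.09% held at least 5 learning peaks. In the first Mb 13 of 190 bins did (6.84%), all 13 of them in the first 400 kb, where they were 17.1% of 76 bins. In the next Mb 1 of 190 bins did. The 13 dense bins lay on 10 chromosomes and held 138 members, 51.7% of all, while 100 of the 190 bins of the first Mb held none. The threshold of 5 peaks was set with the counts known. The median distance between neighbouring learning members was 8852 bp, against 67344 bp in the next Mb and 73607 bp over the autosomes. For homecage members it was 3840 bp, against 4706 bp in the next Mb.

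**Figure D3:**
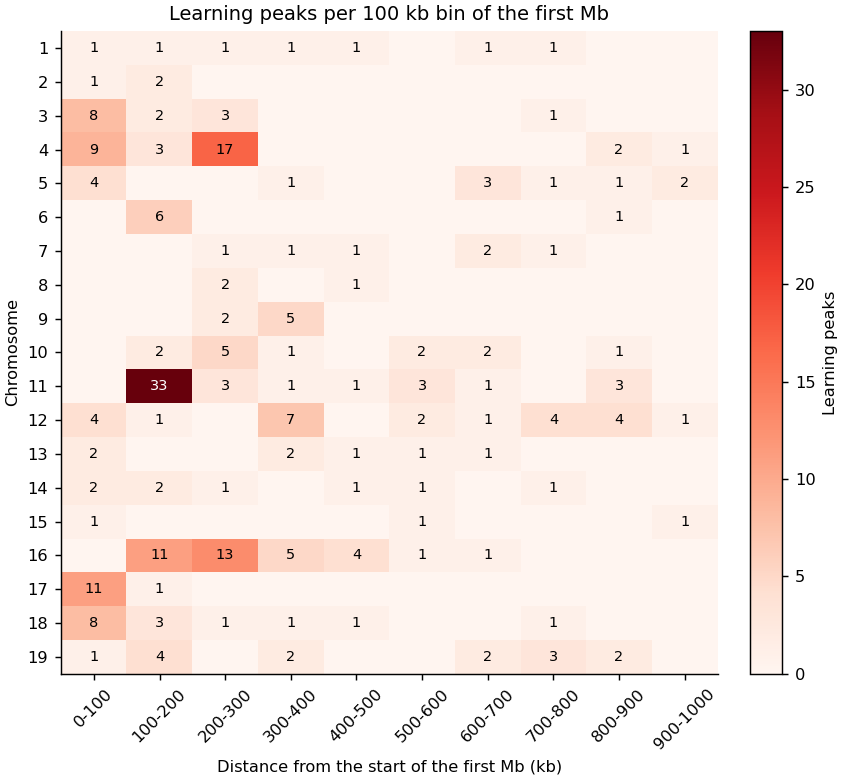
Learning peaks per 100 kb bin (colour) for each autosome (y axis) against distance from base 3000000 in kb (x axis). The dense bins sit in the first 400 kb of 10 chromosomes, with the highest count, 33, on chromosome 11, and most bins of the first Mb are empty or hold few peaks.

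The densest bin lay on chromosome 11, 100 to 200 kb into the sequence, with 33 learning and 33 homecage peaks. No other 100 kb bin of the autosomes held more learning peaks, and 1 held as many. Most of them lay in Sfi1 (chromosome 11, 3131850 to 3203347), which encodes a centrin-binding protein of the centrosome. Its 71498 bp held 28 learning peaks that covered 20017 bp (28.0%), and 27 of these overlapped a homecage peak. It held 25 homecage peaks that covered 30216 bp (42.3%). The widest of these, at 3184219 to 3199921, spanned 15703 bp, was the widest homecage peak of the autosomes, and overlapped 6 learning peaks. Both libraries thus had closely spaced peaks over Sfi1, some of them wide, and 28 of the 267 learning members lay in this gene. Without the peaks in Sfi1 the ratio of first to next Mb was 2.01 in the learning list, an alternative chosen after this locus was seen.

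The other dense bins held few protein-coding genes. On chromosome 4 the first 300 kb held 29 learning and 68 homecage peaks beside the vomeronasal receptor gene Vmn1r3 and related genes, pseudogenes and predicted genes. On chromosome 16 the bins from 100 to 300 kb held 24 learning peaks, 18 of them shared with the homecage list, and 54 homecage peaks, with the pseudogenes Gm4106 and Gm3711 as the only annotated genes. On chromosome 17 the first 100 kb held 11 learning peaks, all 11 shared, and 30 homecage peaks, with Pisd-ps2, a pseudogene of phosphatidylserine decarboxylase. Its relative Pisd-ps1 on chromosome 11 held 2 learning peaks, the widest of 1483 bp, and 2 homecage peaks, the widest of 1710 bp. On chromosome 3 the first 100 kb held 8 learning and 36 homecage peaks and no annotated gene.

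Chromosome 9 began with wide homecage peaks and no learning peak. Its first 40 kb held 13 homecage peaks that covered 28263 bp (70.7%), with a median width of 2342 bp, and 0 learning peaks. The first 200 kb there held 33 homecage and 0 learning peaks. Homecage peaks beside the gap thus occurred both with and without learning peaks. The input libraries were not used, so the wide homecage peaks here were not checked against background.

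**Figure D4:**
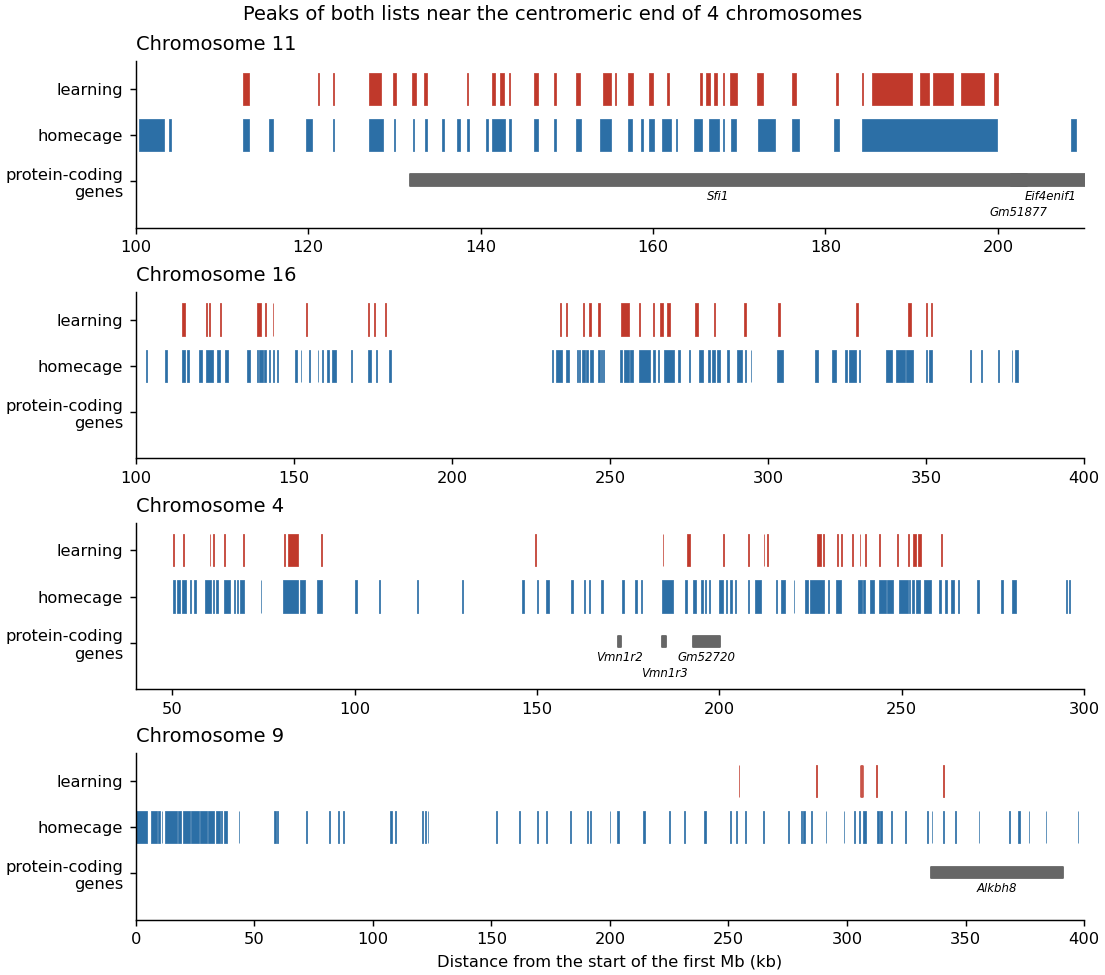
Learning peaks, homecage peaks and protein-coding genes in stretches of chromosomes 11, 16, 4 and 9, against distance from base 3000000 in kb (x axis), with 1 row of bars per kind of feature and narrow peaks drawn at a minimum line width. Clustered learning peaks sit over homecage peaks in Sfi1 on chromosome 11 and outside protein-coding genes on chromosome 16, while chromosome 9 shows 13 homecage peaks and no learning peak in its first 40 kb.

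Learning members overlapped homecage peaks more often than learning peaks elsewhere. Of the 267 members, 169 overlapped a homecage peak by at least 1 bp (63.3%, 95% interval 57.2 to 69.1%), against 42.8% of all autosomal learning peaks and 57 of 119 in the next Mb (47.9%, 38.7 to 57.2%). The share was 144 of 199 in the first 400 kb (72.4%, 65.6 to 78.5%) and 25 of 68 in the other 600 kb (36.8%, 25.4 to 49.3%). Homecage peaks covered 8.53% of the first 400 kb, 5.48% of the other 600 kb and 5.34% of the next Mb, so more sequence was open to overlap near the gap. How far this covered length sets the shared percentage was not tested. The first Mb had a higher share than the next Mb in each of 4 classes of width, but the 95% intervals overlapped in every class. Of the 75 members of 200 to 300 bp, 68% were shared (56.2 to 78.3%), against 35% of 20 peaks in the next Mb (15.4 to 59.2%). At 500 bp or more the shares were 80.8% of 52 members and 73.9% of 23 peaks. Against all autosomal learning peaks the intervals were apart at 200 to 300 bp, where the autosomal share was 38.2% (36.7 to 39.8%). They were also apart at 300 to 500 bp, with 60.5% (49.3 to 70.8%) of members and 41.0% (39.7 to 42.3%) over the autosomes. Below 200 bp and at 500 bp or more they overlapped.

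In the homecage list, 156 of the 2846 members overlapped a learning peak (5.48%, 95% interval 4.67 to 6.38%), against 2.03% of all autosomal homecage peaks and 2.25% (1.71 to 2.90%) in the next Mb. The remaining 2690 homecage members had no learning partner, and 98 learning members had no homecage partner. There were 11 homecage members with 2 or more learning partners, so that single homecage peaks could face several learning peaks.

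Typical peak width differed little from other regions. The median width of learning members was 308 bp (25th to 75th percentile 228 to 470), against 338 bp in the next Mb (198 to 475) and 306.5 bp over the autosomes. In the homecage list it was 361.5 bp (225 to 533), against 342 bp and 351 bp. The widest peaks were more frequent. At least 1000 bp wide were 12 learning members (4.49%), against 1.62% of all autosomal learning peaks and 8 in the next Mb (6.72%), and 147 homecage members (5.17%), against 3.04% and 69 in the next Mb (2.67%). In the learning list, widths of at least 1000 bp thus set the first Mb apart from the autosomes and not from the next Mb. Of the 13 autosomal learning peaks of at least 2000 bp, 5 were members and 0 lay in the next Mb, and 25 homecage members reached that width, again with 0 in the next Mb.

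The 5 widest learning members lay on 3 chromosomes. On chromosome 11 they were at 3185413 to 3190017 (4605 bp), 3195674 to 3198447 (2774 bp) and 3192505 to 3194779 (2275 bp), all in Sfi1 and all under its 15703 bp homecage peak. On chromosome 4 the widest was at 3081815 to 3084416 (2602 bp), outside annotated genes, under a homecage peak of 3980 bp at 3080449 to 3084428. On chromosome 16 it was at 3253640 to 3255907 (2268 bp), also outside annotated genes, over 2 homecage peaks. The widest learning members thus all had a homecage partner, and 1 annotated gene held 3 of them. The widest homecage members after that of Sfi1 lay on chromosome 9, at 3012240 to 3017245 (5006 bp) and 3000237 to 3004820 (4584 bp), without learning peaks, and on chromosome 4, at 3080449 to 3084428 and at 3224868 to 3228580 (3713 bp), the last over 2 learning peaks.

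Learning members lay at gene ends less often than learning peaks elsewhere. Within 1 kb of either end of a protein-coding gene lay 35 learning members (13.1%, 95% interval 9.30 to 17.8%), against 20% of all autosomal learning peaks and 48 of 119 in the next Mb (40.3%, 31.4 to 49.7%). The share was 7.54% in the first 400 kb and 29.4% in the other 600 kb. In the homecage list it was 157 members (5.52%, 4.71 to 6.42%), against 5.13% of all autosomal homecage peaks and 199 in the next Mb (7.71%). Bodies of protein-coding genes held 32.6% of learning members, 68.1% in the next Mb and 52.1% over the autosomes, and 36.6%, 46.7% and 42.6% of homecage peaks. The dense learning peaks beside the gap thus lay mostly away from gene ends and, outside Sfi1, mostly away from protein-coding genes. Homecage peaks of the first 400 kb did so too. There 3.16% lay at gene ends and 24.7% in protein-coding bodies, against 7.54% and 25.1% of learning peaks.

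Gene content differed along the same stretch. There were 6.84 protein-coding genes per Mb in the first 400 kb, 10.4 in the whole first Mb and 12.8 in the next Mb, and 11.4, 8.47 and 4.26 pseudogenes. Pseudogene bodies held 9 learning members (3.37%), 8 of them in the first 400 kb, against 0 in the next Mb and 2.71% over the autosomes. They held 96 homecage members (3.37%), against 1.24% in the next Mb and 1.48% over the autosomes. Near-identical copies can share reads, and the treatment of reads with several matches is not given in the sources used here, so peaks in pseudogenes, vomeronasal receptors, Sfi1 and predicted gene families are uncertain. The part of gene content in the gene end shares was not tested.

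Counted by gene, the first Mb looked like the rest of the genome. Of its 197 protein-coding genes, 33 had a learning peak within 1 kb of an end (16.8%, 95% interval 11.8 to 22.7%), against 16.5% of all autosomal protein-coding genes and 21.7% in the next Mb. A homecage peak was there at 130 genes (66.0%, 58.9 to 72.6%), against 64.2% and 68.0%. Both lists marked 29 genes, the homecage list alone 101 and neither 63, against 51, 115 and 76 of 244 in the next Mb. The learning list alone marked 4, against 2 in the next Mb. Those 4, named after their values were seen, were Selenom, a selenoprotein of the endoplasmic reticulum, Iyd, the iodotyrosine deiodinase, and the predicted genes D830030K20Rik and Gm38690, which share 1 peak of 187 bp.

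By gene family, zinc finger genes had a learning peak at 1 of 4 and a homecage peak at 4 of 4. Vomeronasal receptor genes, which encode pheromone receptors, had a learning peak at 1 of 3 and a homecage peak at 3 of 3. Olfactory receptor genes had a learning peak at 0 of 2 and a homecage peak at 1 of 2, no defensin gene lay in the first Mb, and predicted genes had 3 and 14 of 25. These families are too small to be set apart from the 16.8% and 66.0% of all genes.

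The genes with the widest peaks at an end are grouped here by their known roles, a grouping made with the list in view. Among regulators of chromatin and transcription, Kmt5b had the widest learning peak of all genes, at chromosome 19, 3767458 to 3768549 (1092 bp), with a homecage peak of 1299 bp. Gatad1, a zinc finger protein of chromatin, had a learning peak of 534 bp at chromosome 5, 3647403 to 3647936, and a homecage peak of 377 bp. Morc2a, an ATPase that acts in gene silencing with the HUSH complex, had peaks of 363 and 346 bp on chromosome 11. The regulators Patz1, Zfp358 and Crem, the last a transcription factor responsive to cyclic AMP, had learning peaks of 289, 299 and 248 bp. Wider homecage peaks of 485, 1135 and 466 bp overlapped them, at Patz1 over only part of the learning peak. Dnmt3a fell outside this list because its peak of 920 bp (chromosome 12, 3806543 to 3807462) covered an internal start and not an end of the gene, and it is named here after its values were seen. The homecage peak there was 2916 bp wide, and the body of Dnmt3a held 4 learning and 22 homecage peaks.

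Of the genes of RNA processing and turnover, Scaf8, which binds the tail of RNA polymerase II, had a learning peak of 469 bp (chromosome 17, 3115091 to 3115559) and a homecage peak of 1265 bp. Cnot3, a subunit of the CCR4-NOT deadenylase complex, had peaks of 442 bp (chromosome 7, 3645475 to 3645916) and 530 bp. Both genes thus had the wider peak in the homecage list.

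Among signalling and membrane genes, Insr, the insulin receptor, had a learning peak of 492 bp (chromosome 8, 3279018 to 3279509) with a homecage peak of 437 bp over part of it. Inpp5j, an inositol polyphosphate phosphatase, had a learning peak of 478 bp (chromosome 11, 3504692 to 3505169), and its homecage peak of 1107 bp did not overlap it. Gdi2, which extracts Rab GTPases from membranes, had peaks of 502 and 594 bp on chromosome 13 that did not overlap. Sharing a gene therefore did not always mean sharing a site. Xkr4, of a family of membrane lipid scramblases, had a learning peak of 577 bp at one end (chromosome 1, 3670805 to 3671381) with a homecage peak of 312 bp over it, and its body held 4 learning and 68 homecage peaks. Myadm, a membrane protein named for myeloid differentiation, had a learning peak of 353 bp on chromosome 7 with a homecage peak of 149 bp over it. Slc35e4, of a family of nucleotide sugar transporters, had a homecage peak of 1490 bp (chromosome 11, 3905786 to 3907275) and no learning peak.

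The remaining named genes have varied roles. Kif3c, a kinesin motor, had peaks of 384 and 380 bp on chromosome 12 that did not overlap. Fbxo4 and Ankib1, both of ubiquitin ligases, had learning peaks of 276 and 243 bp with homecage peaks of 196 and 167 bp over them, and the Ankib1 learning peak also lay near Krit1. At its end, Sfi1 had a learning peak of 410 bp (chromosome 11, 3132079 to 3132488) with a homecage peak of 209 bp over it. Over the gene body the median widths were 430.5 bp (learning) and 515 bp (homecage), and the widest peaks were 4605 and 15703 bp. Selenom and Iyd had learning peaks of 274 and 247 bp and no homecage peak at an end. The predicted gene Gm52720 on chromosome 4 had 2 learning and 2 homecage peaks within 1 kb of its ends, so each list had a peak at both ends. The widest learning peak, of 925 bp, lay at one end and the widest homecage peak, of 917 bp, at the other. The predicted genes Gm2977 and Gm3043 on chromosome 14 had homecage peaks of 1333 and 1241 bp and no learning peak. Of the 20 named genes with a learning peak, 14 had a homecage peak overlapping it. An overlap was found for 63.3% of all learning members and 42.8% of all autosomal learning peaks. The homecage peak was the wider at 6 of the 14 genes and the learning peak at 8. Because the 20 genes were picked for their wide learning peaks, these counts do not compare the widths of the 2 lists.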

How the data were processed

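Only the deposited peak lists of the 2 pan-Kcr ChIP-seq libraries were used. Per the submitters' processing notes, Trimmomatic, BWA, MACS2 and mm10 (GRCm38) were used, with no versions or roles given, and peak names in the deposited files record broad peak calling at a p-value threshold of 0.01. The values the authors deposited are peak starts and ends in bp, 1 list per library, with no strength or depth. Of the columns of per-sample values, 0 were left unmapped.

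Libraries were assigned to conditions by title. Members, regions and gene families were chosen with earlier results of these data known. An overlap of 1 bp or more made peaks shared. Peaks count in every region they touch, and 2 homecage peaks lie in both the first and the next Mb. Gene positions and promoters came from RefSeq tables of GRCm38.p6, with 20661 protein-coding genes on the autosomes. Gene ends reach 1 kb inwards and outwards from each end of a gene, since the gene table gives no strand. Covered shares are of nominal sequence, gaps included.

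Named peaks are the 5 widest members of each list and the widest learning member on each of the 3 chromosomes with most members. Named genes are the 20 protein-coding genes of the first Mb with the widest learning peak at an end, and the 5 with the widest homecage peak there and no learning peak. Part of the latter is not reported here. The homecage peak given for a gene is the one over its learning peak, where there is one. Intervals are exact (Clopper-Pearson) at 95%. Ratios use the exact binomial interval of the split of counts. Software was matplotlib 3.10.9, scipy 1.17.1, pandas 2.3.3, numpy 2.4.6 and Python 3.11.15, and the functions were tested on simulated peaks. Alternatives were merging of peaks closer than 1 kb, peaks of at least 500 bp, other overlap rules, other windows, other reference regions and leaving out chromosomes, Sfi1, or the first 100 kb or 400 kb.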

Additional observations from a re-analysis of the deposited data

Results flagged for a closer look

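Peaks outside the autosomes entered none of the counts above, and the counts given here lay above the 3 peaks that a count of 0 allows unless they are 0. The first Mb of chromosome X held 5 learning peaks, with 0 in its next Mb, and 24 homecage peaks, with 26 in its next Mb. The same bases of chromosome Y held 6 learning peaks, with 0 in its next Mb, and 51 homecage peaks, with 4 in its next Mb. The sequences assigned to chromosome 1 without a position held 193 learning and 367 homecage peaks. Where these sequences lie relative to the centromere is not given by the files.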

How the results depend on the processing

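The depth of both libraries is unknown, so peak numbers cannot be corrected for it, and 1 library per condition gives no replicate error. No paired analysis was possible because there was a single antibody library on each side, which also meant that leaving out a replicate was not possible. Density per Mb of assembled sequence was planned and not run without a genome sequence. Recomputing gave 55 values, of which 31 kept within the interval or spread, 23 moved beyond it and 1 turned its direction. Of the 55, 20 came from alternatives chosen after seeing the data: leaving out Sfi1, the 4 leading chromosomes, or the first 400 kb.

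Leaving out the first 400 kb turned the learning ratio of first to next Mb from 2.24 to 0.952. It moved the homecage ratio to 1.02, the shared learning percentage to 36.8%, the median widths to 289.5 bp (learning) and 343 bp (homecage), homecage peaks per learning peak to 23.3, and the gene end shares to 29.4% and 7.40%. Without chromosomes 4, 11, 12 and 16 the learning ratio was 1.58 and homecage peaks per learning peak were 16.8, and without chromosome 11 the latter were 12.1. A minimum width of 500 bp gave a homecage ratio of 1.31, a shared percentage of 76.9% and 15.8 homecage peaks per learning peak. At that width the first Mb held 820 homecage and 52 learning peaks, the next Mb 625 and 23, and the autosomes 81687 and 2470. Shared percentages under other rules of width or overlap were computed for the first Mb alone. They therefore cannot be set against the shares of other regions given above. Merging moved the homecage ratio to 1.04 and its median width to 388 bp. Requiring an overlap of 50% of both peaks lowered the shared percentage to 24.7%, and counting peaks within 500 bp raised it to 75.3%. Mean widths were 423 bp (learning) and 447 bp (homecage). Gene bodies gave 32.6% of learning and 36.6% of homecage members, and for homecage members 3 kb windows gave 11.4% and all annotated genes 10.8%.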
